A study of Mus musculus with 32 samples.

Results

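The 9 genes described here encode C-type lectin receptors of myeloid cells: Clec4e (Mincle), Clec4d (MCL, also called Dectin-3), Clec4n (Dectin-2), Clec5a (MDL-1), Clec7a (Dectin-1), Clec4a2 (DCIR), Clec12a (MICL), Clec10a (MGL1, CD301a) and Mgl2 (CD301b). They were taken by gene symbol from the 24421 genes in the count tables, all 9 were found there, and all 9 were among the 13453 genes that passed the filter on low counts. RNA was sequenced in bulk from macrophages sorted by flow cytometry from epididymal fat of C57BL/6J mice. Each of 8 groups held 4 libraries: mice lacking A20 in myeloid cells (KO) and wild-type mice (WT), on high-fat diet (HFD) or on standard diet (SD), each for 12 weeks. From each of these the CD11c+ population, described as CD206 low and CD11c high, and the CD206+ population were sorted. The Cre line and the deleted exons are not given in the labels. They also do not say that a group's libraries are from different animals, so a p-value measures the spread among libraries, which may be technical.

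Libraries held between 17619638 and 23832924 counts assigned to genes. The lowest member count in any library was 78 reads, for Clec4d. Tnfaip3, which encodes A20 itself, had between 167 and 474 counts per 1000000 gene counts (CPM) in KO libraries and between 486 and 1647 CPM in WT libraries. It was lower in KO in all 4 genotype comparisons, with log2 fold changes of -1.98 to -1.28. Itgax, which encodes CD11c, ranged from 146 to 379 CPM in CD11c+ libraries and from 1.25 to 50.3 CPM in CD206+ libraries. The WT HFD CD206+ group made up the upper end of the CD206+ range, at 20.7 to 50.3 CPM. Mrc1, which encodes CD206, ranged from 401 to 722 CPM in CD11c+ libraries and from 1290 to 2147 CPM in CD206+ libraries. The macrophage genes Csf1r, at 1536 to 5281 CPM, and Adgre1, at 462 to 1808 CPM, were detected in all 32 libraries, and the 8 macrophage markers summed to 4808 to 19650 CPM. In bulk RNA, fewer cells of a type and less RNA per cell cannot be told apart.

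C-type lectin receptors are transmembrane proteins that bind sugars, glycolipids or proteins of microbes and of damaged cells. Mincle, MCL and Dectin-2 have no signalling motif of their own and pair with the Fc receptor gamma chain (Fcer1g), whose phosphorylated motif recruits the kinase Syk and, through CARD9, BCL10 and MALT1, activates NF-kB. MDL-1 pairs with the adaptors DAP12 (Tyrobp) and DAP10 (Hcst). Dectin-1, the receptor for beta-glucan, carries a motif that binds Syk directly. DCIR and MICL instead carry an inhibitory motif that recruits phosphatases. The 2 galactose-type lectins MGL1 and CD301b bind galactose and N-acetylgalactosamine and are commonly used to mark alternatively activated macrophages. A20 is a ubiquitin-editing enzyme that limits NF-kB signalling. In adipose tissue Mincle is known from macrophages of crown-like structures, which surround dying fat cells in obesity.

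The genes lie in a few clusters of the mouse genome (GRCm38). On chromosome 6, Clec4a2, Clec4n, Clec4d and Clec4e follow one another over 183 kb, from 123106428 to 123289870, with Clec4b2, which did not pass the filter, as the only other coding gene between them. Clec12a and Clec7a bound a second run of 130 kb on chromosome 6, from 129342691 to 129472779. Clec5a lies elsewhere on chromosome 6, at 40574894 to 40585821. Mgl2 and Clec10a are neighbours on chromosome 11 within 40.5 kb, from 70130329 to 70170834. The 250 bases before the RefSeq transcription start (GRCm38.p6, 7 of the 9 genes matched) are shown for Clec4e and Clec4d, neighbours with unlike patterns, and for Clec5a and Mgl2, which differed by population and by diet. Capitals mark letters of the motifs searched. Both strands were searched for C/EBP (TTGCNNAA), the PU.1 core (GAGGAA), AP-1 (TGANTCA), the TATA box (TATAAA) and a kB consensus, and the capitals shown do not overlap.

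Clec4e, chr6:123289872-123290121, minus strand: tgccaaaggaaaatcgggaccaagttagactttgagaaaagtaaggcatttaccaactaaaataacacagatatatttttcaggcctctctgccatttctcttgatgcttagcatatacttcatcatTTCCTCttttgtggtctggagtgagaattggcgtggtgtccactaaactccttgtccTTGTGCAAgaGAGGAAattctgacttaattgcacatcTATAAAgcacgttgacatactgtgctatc
Clec4d, chr6:123261857-123262106, plus strand: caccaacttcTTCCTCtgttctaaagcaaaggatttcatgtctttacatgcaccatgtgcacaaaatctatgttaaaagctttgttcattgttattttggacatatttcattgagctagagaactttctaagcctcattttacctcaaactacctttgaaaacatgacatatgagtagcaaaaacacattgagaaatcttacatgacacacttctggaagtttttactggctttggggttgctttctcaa
Clec5a, chr6:40585806-40586055, minus strand: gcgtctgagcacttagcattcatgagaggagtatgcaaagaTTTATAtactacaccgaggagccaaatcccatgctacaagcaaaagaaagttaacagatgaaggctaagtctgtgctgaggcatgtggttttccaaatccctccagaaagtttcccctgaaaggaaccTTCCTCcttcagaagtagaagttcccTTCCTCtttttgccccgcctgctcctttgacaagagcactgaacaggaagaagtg
Mgl2, chr11:70130107-70130356, plus strand: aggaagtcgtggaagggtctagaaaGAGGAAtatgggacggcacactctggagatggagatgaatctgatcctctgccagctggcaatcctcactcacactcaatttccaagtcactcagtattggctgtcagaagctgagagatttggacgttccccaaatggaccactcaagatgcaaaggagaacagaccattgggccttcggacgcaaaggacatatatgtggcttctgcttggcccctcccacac

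The Clec4e window holds the C/EBP letters 66 bases before the start, the PU.1 core at 123 bases and again at 56 bases, and TATA letters at 29 bases. C/EBP letters were found in 9.56% of 32851 promoter windows of the same length, the PU.1 core in 23.3% and TATA letters in 12.4%. The Clec4d window, from the neighbouring gene, holds a single PU.1 core at 240 bases and the Mgl2 window one at 225 bases. The Clec5a window has the PU.1 core at 81 and 55 bases and TATA letters on the opposite strand at 209 bases. A match to the kB consensus, present in 7.25% of windows, was not found in these letters for any of the 7 genes.

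Clec4e had the largest fitted genotype difference of the 9 members in 3 of the 4 comparisons, and in CD11c+ cells on SD Clec4n was slightly higher (3.06 against 3.03). All 16 KO libraries, at 168 to 723 CPM, lay above all 16 WT libraries for Clec4e, at 14.7 to 85.9 CPM. In CD11c+ cells on HFD it had 654, 378, 308 and 399 CPM in KO libraries, against 24.7, 29.6, 34 and 31.1 CPM in WT libraries. On SD, CD11c+ cells held 519, 554, 599 and 651 CPM in KO libraries, against 76.3, 72.5, 85.9 and 49.7 CPM in WT libraries. Every KO library of CD11c+ cells was thus well above every WT library on the same diet. The fitted difference (log2 fold change KO over WT ± SE) was 3.86 ± 0.34 on HFD (14.6-fold, adjusted p = 3.76e-10) and 3.03 ± 0.32 on SD (8.16-fold, adjusted p = 2.16e-08). These and all later adjusted p-values are from edgeR's quasi-likelihood test with Benjamini-Hochberg adjustment over all tested genes.

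CD206+ cells showed the same direction for Clec4e. On HFD they held 321, 274, 168 and 373 CPM in KO libraries, against 31.3, 24.9, 56.6 and 39.7 CPM in WT libraries, a difference of 2.90 ± 0.32 (7.46-fold, adjusted p = 6.02e-08). On SD they held 292, 213, 328 and 723 CPM in KO libraries, against 27.8, 29.3, 16.1 and 14.7 CPM in WT libraries, a difference of 4.14 ± 0.34 (17.7-fold, adjusted p = 5.11e-10). The KO SD CD206+ library at 723 CPM, replicate 4, was also the highest of its group for the monocyte genes Ly6c2, with 34.3 CPM against 4.13 to 9.61 CPM in the other 3, and Hp, with 94 CPM against 20.2 to 36.1 CPM. Without that library the Clec4e difference was 3.69. In KO HFD CD11c+ cells the library with the most Clec4e, replicate 1 at 654 CPM, had the highest Hp, 149 CPM against 63.8 to 69.9 CPM. Its Ly6c2, 6.56 CPM, was the lowest of that group, against 7.84 to 10.9 CPM. For Clec4e the interaction of genotype with diet was 0.84 ± 0.43 in CD11c+ cells (adjusted p = 0.151) and -1.25 ± 0.43 in CD206+ cells (adjusted p = 0.058). Neither passed the threshold, but with only its own groups in the fit the CD11c+ interaction did (0.84, adjusted p = 0.0312). The CD206+ interaction, at -1.47 to -0.78, passed in 6 of the 16 fits without 1 library. In the order of group means all 4 KO groups came first, with each KO group overlapping the next, followed by a gap and the 4 WT groups.

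**Figure D1:**
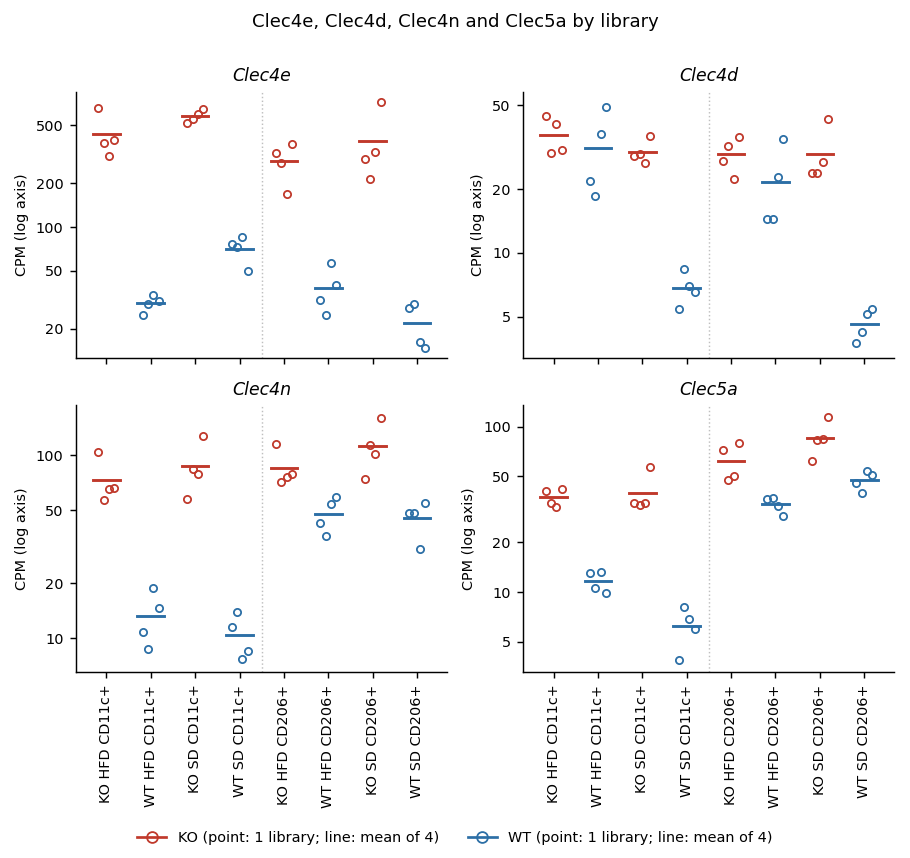
CPM (log axis) of Clec4e, Clec4d, Clec4n and Clec5a in each of the 32 libraries (points) with group means (lines), KO beside WT for each diet and population. For Clec4e the KO points lie at 168 to 723 CPM, all above the WT points at 14.7 to 85.9 CPM, while for Clec4d only the WT SD groups, at 3.73 to 8.44 CPM, stand below the rest.

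Clec4d, which lies next to Clec4e and whose protein can pair with Mincle, did not follow it. On HFD, CD11c+ cells held 44.3, 29.6, 40.6 and 30.7 CPM in KO libraries, against 22, 18.7, 36.4 and 49.2 CPM in WT libraries. The groups overlapped and the difference, 0.20 ± 0.26, did not pass the test (adjusted p = 0.571, 95% interval -0.33 to 0.73). On SD they held 28.8, 29.5, 26.7 and 35.9 CPM in KO libraries, against 5.41, 8.44, 6.95 and 6.52 CPM in WT libraries. These groups did not overlap, and Clec4d rose in KO by 2.14 ± 0.28 (4.42-fold, adjusted p = 7.88e-07). The low values were thus those of WT cells on SD. The genotype difference on HFD minus that on SD, the interaction of genotype with diet, was -1.94 ± 0.38 (adjusted p = 0.000213).

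CD206+ cells gave the same picture for Clec4d. On HFD the KO libraries held 27.3, 32, 22.3 and 35.6 CPM and the WT libraries 14.5, 14.5, 23 and 34.6 CPM. They overlapped, with a difference of 0.44 ± 0.26 (adjusted p = 0.255) that passed the threshold without WT HFD replicate 4 (0.78, adjusted p = 0.0355). On SD they held 23.9, 23.9, 27.1 and 43 CPM in KO libraries, against 3.73, 4.21, 5.14 and 5.4 CPM in WT libraries, a rise of 2.67 ± 0.29 in KO (6.38-fold, adjusted p = 4.82e-08). The interaction of genotype with diet was -2.24 ± 0.39 (adjusted p = 0.000215). As a ratio of counts within a library, not corrected for transcript length, Clec4e over Clec4d averaged between 9.59 and 19.3 in the 4 KO groups. It averaged 1.07 ± 0.396 in WT HFD CD11c+, 1.87 ± 0.571 in WT HFD CD206+, 10.7 ± 3.07 in WT SD CD11c+ and 5.06 ± 2.48 in WT SD CD206+ libraries (SD, n = 4 each).

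Clec4n, the Dectin-2 gene for recognition of fungal mannans, was higher in KO in all 4 comparisons, and more so in CD11c+ cells. There it held 104, 57.2, 65.2 and 66.2 CPM in KO HFD libraries, against 10.8, 8.79, 18.8 and 14.6 CPM in WT HFD libraries (2.47 ± 0.28, 5.52-fold, adjusted p = 3.07e-08). On SD it held 58, 84.3, 79 and 127 CPM in KO CD11c+ libraries, against 11.5, 14, 7.7 and 8.47 CPM in WT CD11c+ libraries (3.06 ± 0.28, 8.33-fold, adjusted p = 1.54e-09). The CD11c+ groups of the 2 genotypes were far apart on either diet.

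In CD206+ cells the WT level of Clec4n was itself higher. On HFD the KO libraries held 115, 71.8, 76.4 and 79 CPM and the WT libraries 42.8, 36.1, 54 and 59.4 CPM, apart but close. The rise of 0.83 ± 0.26 in KO (1.78-fold, adjusted p = 0.0187) missed the threshold without KO replicate 1 (0.65, adjusted p = 0.094) or WT replicate 2 (0.72, adjusted p = 0.066). On SD they held 73.9, 114, 102 and 159 CPM in KO libraries, against 48.6, 48.3, 30.6 and 54.7 CPM in WT libraries (1.30 ± 0.26, 2.46-fold, adjusted p = 0.000392). The genotype difference was larger in CD11c+ than in CD206+ cells by 1.63 ± 0.37 on HFD (adjusted p = 0.0108) and by 1.76 ± 0.37 on SD (adjusted p = 0.00393).

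Clec5a, which encodes the DAP12-coupled receptor MDL-1, rose in KO in all 4 comparisons without overlap. CD11c+ cells on HFD held 41.1, 34.5, 32.7 and 42.2 CPM in KO libraries, against 13.1, 10.6, 13.3 and 9.84 CPM in WT libraries (1.68 ± 0.21, 3.21-fold, adjusted p = 1.56e-07). On SD they held 34.6, 33.6, 34.4 and 57 CPM in KO libraries, against 3.87, 8.15, 6.9 and 5.99 CPM in WT libraries (2.68 ± 0.22, 6.41-fold, adjusted p = 1.6e-10). In CD206+ cells the KO HFD libraries held 71.8, 47.5, 50.3 and 79.5 CPM and the WT HFD libraries 36.7, 37, 33.3 and 28.7 CPM (0.88 ± 0.20, 1.83-fold, adjusted p = 0.00127). On SD the CD206+ KO libraries held 62.4, 82.6, 84.6 and 114 CPM and the WT libraries 45.6, 39.9, 53.7 and 51.1 CPM (0.85 ± 0.19, 1.81-fold, adjusted p = 0.00158).

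For Clec5a in CD206+ cells the interaction of genotype with diet was 0.02 ± 0.27 (adjusted p = 0.974, 95% interval -0.54 to 0.58). In CD11c+ cells the rise in KO was smaller on HFD than on SD, with an interaction of -1.0 ± 0.29 (adjusted p = 0.0106). That last call was lost without KO SD CD11c+ replicate 4, the library at 57 CPM (-0.73, adjusted p = 0.0513). On SD the rise was larger in CD11c+ than in CD206+ cells by 1.83 ± 0.29 (adjusted p = 0.000205).

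Clec12a, which encodes the inhibitory receptor MICL for uric acid crystals, had low values only in WT SD libraries. CD11c+ cells on SD held 436, 431, 424 and 441 CPM in KO libraries, against 164, 155, 186 and 173 CPM in WT libraries, a rise of 1.36 ± 0.11 in KO (2.56-fold, adjusted p = 2.11e-10). CD206+ cells on SD held 363, 381, 363 and 440 CPM in KO libraries, against 248, 184, 220 and 261 CPM in WT libraries (0.76 ± 0.11, 1.69-fold, adjusted p = 7.49e-06). The 2 genotypes were apart in both populations on SD.

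On HFD the Clec12a groups overlapped. CD11c+ cells held 454, 384, 409 and 426 CPM in KO libraries and 533, 436, 491 and 394 CPM in WT libraries. CD206+ cells held 376, 391, 271 and 373 CPM in KO libraries and 451, 368, 374 and 372 CPM in WT libraries. The difference was -0.15 ± 0.11 in both (adjusted p = 0.311 and 0.382, 95% interval -0.38 to 0.08 in both). The genotype difference depended on diet, with interactions of -1.50 ± 0.16 in CD11c+ cells (adjusted p = 2.96e-08) and -0.91 ± 0.16 in CD206+ cells (adjusted p = 0.000232), the same direction as for Clec4d.

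Clec7a, the Dectin-1 gene, differed between genotypes in 1 of the 4 comparisons. In CD11c+ cells it had 431, 296, 429 and 418 CPM in KO HFD libraries and 473, 444, 435 and 374 CPM in WT HFD libraries (-0.13 ± 0.14, adjusted p = 0.485). On SD these cells had 406, 453, 421 and 431 CPM in KO libraries and 432, 489, 406 and 321 CPM in WT libraries (0.05 ± 0.14, adjusted p = 0.819). Both pairs of groups overlapped. CD206+ cells on HFD held 226, 247, 158 and 221 CPM in KO libraries, all below the 333, 294, 292 and 263 CPM in WT libraries. This difference, -0.47 ± 0.14 (adjusted p = 0.0158), did not pass the threshold without KO replicate 3 (-0.34, adjusted p = 0.0906) or WT replicate 1 (-0.40, adjusted p = 0.0676). On SD the CD206+ values, 277, 178, 198 and 238 CPM in KO and 252, 269, 210 and 218 CPM in WT libraries, overlapped (-0.09 ± 0.14, adjusted p = 0.693).

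Clec4a2, encoding the inhibitory receptor DCIR, varied by 2.34-fold between its lowest and highest library, the narrowest span of the 9. CD11c+ cells on HFD held 229, 267, 199 and 218 CPM in KO libraries, against 180, 191, 178 and 177 CPM in WT libraries. The groups were just apart, with a rise of 0.33 ± 0.12 in KO (adjusted p = 0.0285). That call was lost without KO replicate 1 (adjusted p = 0.0513), without KO replicate 2 (adjusted p = 0.134) or with scaling by library totals (adjusted p = 0.0749). In the other 3 comparisons the groups overlapped and none passed the threshold. The differences were 0.23 in CD11c+ cells on SD (adjusted p = 0.168), -0.25 in CD206+ cells on HFD (adjusted p = 0.137) and 0.26 in CD206+ cells on SD (adjusted p = 0.11). Of the sequences of 50 bases in its transcripts, 6.83% also occur in other genes, among them Clec4a4 and Clec4b1. A pseudogene overlaps it on the same strand, so its counts are less certain than those of Clec4e, Clec4d and Clec5a, which share none.

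**Figure D2:**
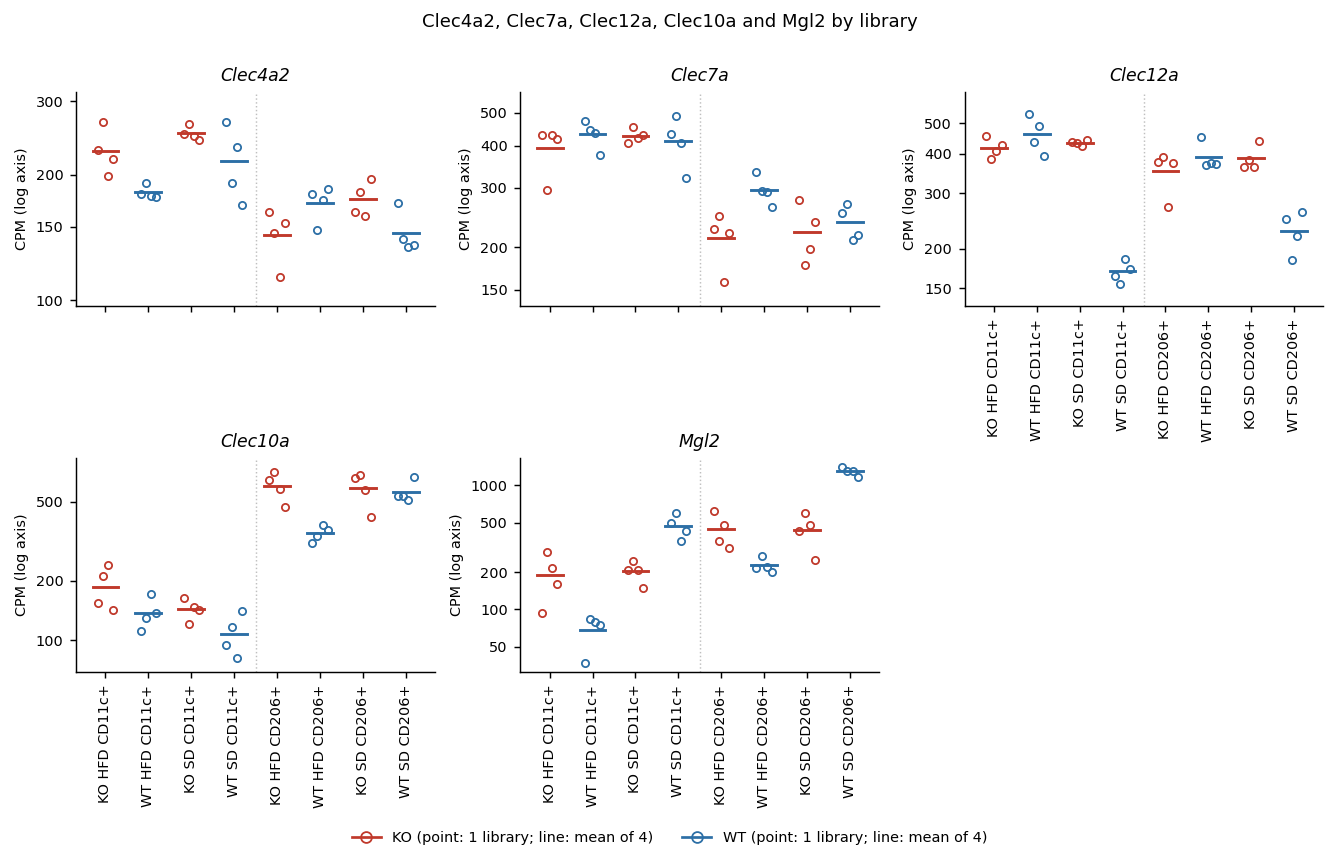
CPM (log axis) of Clec4a2, Clec7a, Clec12a, Clec10a and Mgl2 in each of the 32 libraries (points) with group means (lines), in the same order of groups. Clec12a is low, at 155 to 261 CPM, and Mgl2 high, at 357 to 1408 CPM, in the WT SD libraries; Clec10a separates CD11c+ libraries, at 81.4 to 239 CPM, from CD206+ libraries, at 311 to 708 CPM.

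Mgl2 differed between genotypes in opposite directions on the 2 diets. On HFD, CD11c+ cells held 93.6, 290, 214 and 160 CPM in KO libraries, against 37, 83.6, 79.7 and 74.8 CPM in WT libraries. Every KO library was higher, with a rise of 1.46 ± 0.28 (2.75-fold, adjusted p = 0.000109). On SD they held 208, 246, 208 and 150 CPM in KO libraries, against 494, 601, 357 and 431 CPM in WT libraries. Every KO library was lower (-1.21 ± 0.28, 0.431-fold, adjusted p = 0.00129). The WT libraries lay below the KO libraries on HFD and above them on SD.

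Mgl2 in CD206+ cells also changed direction with diet. On HFD the KO libraries held 623, 358, 480 and 313 CPM and the WT libraries 214, 270, 220 and 200 CPM (0.97 ± 0.27, 1.96-fold, adjusted p = 0.00956; without KO replicate 1, 0.76, adjusted p = 0.0616). On SD the KO libraries held 429, 598, 479 and 251 CPM and the WT libraries 1408, 1293, 1294 and 1172 CPM, the highest levels of Mgl2 in the study (-1.56 ± 0.28, 0.34-fold, adjusted p = 9.76e-05). The interactions with diet were 2.67 ± 0.39 in CD11c+ cells (adjusted p = 5.01e-06) and 2.53 ± 0.39 in CD206+ cells (adjusted p = 5.43e-05).

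Clec10a, the neighbour of Mgl2 that encodes the related lectin MGL1, had its largest fitted genotype difference in CD206+ cells on HFD. There it held 645, 708, 583 and 472 CPM in KO libraries, against 311, 337, 383 and 361 CPM in WT libraries. These groups did not overlap (0.79 ± 0.17, 1.73-fold, adjusted p = 0.00106). On SD the CD206+ groups overlapped, with 658, 682, 577 and 420 CPM in KO libraries and 536, 538, 509 and 669 CPM in WT libraries (0.05 ± 0.17, adjusted p = 0.862). The difference between these effects was 0.74 ± 0.24 (adjusted p = 0.0466), a call lost in 12 of the 16 fits that each left out 1 library. The interaction of genotype with population was -0.35 ± 0.25 on HFD (adjusted p = 0.475) and 0.36 ± 0.25 on SD (adjusted p = 0.435). Neither passed the threshold.

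In CD11c+ cells Clec10a held 154, 210, 239 and 142 CPM in KO HFD libraries and 111, 130, 171 and 138 CPM in WT HFD libraries. The groups overlapped, although the difference just passed the threshold (0.44 ± 0.17, adjusted p = 0.0471). It no longer passed when KO replicate 2 (adjusted p = 0.128), KO replicate 3 (0.21) or WT replicate 1 (0.114), 2 (0.0775) or 4 (0.0588) was left out. Nor did it pass with library totals as the scaling (0.0724) or with these groups alone in the fit (0.0783). On SD it held 164, 121, 147 and 143 CPM in KO libraries and 94.9, 116, 81.4 and 140 CPM in WT libraries (0.41 ± 0.17, adjusted p = 0.0786; without WT replicate 4, 0.57, adjusted p = 0.0211). Clec10a and Mgl2 share 270 sequences of 50 bases, and 9.02% of those of Clec10a and 13.1% of those of Mgl2 occur in another gene, so reads could be split between them. The ratio of Mgl2 to Clec10a counts, not corrected for length, averaged 4.47 ± 1 in WT SD CD11c+ and 2.33 ± 0.397 in WT SD CD206+ libraries (SD, n = 4 each), against 0.497 to 1.44 in the other 6 groups.

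Counted over the 9 members, KO against WT gave 6 higher and 0 lower in CD11c+ cells on HFD, where 38% of all tested genes were called, 18.6% higher in KO and 19.4% lower. CD11c+ cells on SD gave 5 higher and 1 lower, with 26.8% of all genes called, 13.2% higher and 13.6% lower. CD206+ cells on HFD gave 5 higher and 1 lower, with 21.8% called, 10.5% higher and 11.3% lower. On SD they gave 5 higher and 1 lower, with 24.5% called, 11.8% higher and 12.7% lower. The median member difference was 0.44, 1.36, 0.79 and 0.76 on the log2 scale in that order, against -0.02, -0.02, 0 and -0.03 over all tested genes. Clec4e, Clec4n and Clec5a were higher in all 4 comparisons, and Clec4d and Clec12a on SD in both populations. Mgl2 was higher on HFD and lower on SD, Clec10a was higher on HFD, Clec4a2 was higher in 1 comparison and Clec7a lower in 1.

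**Figure D3:**
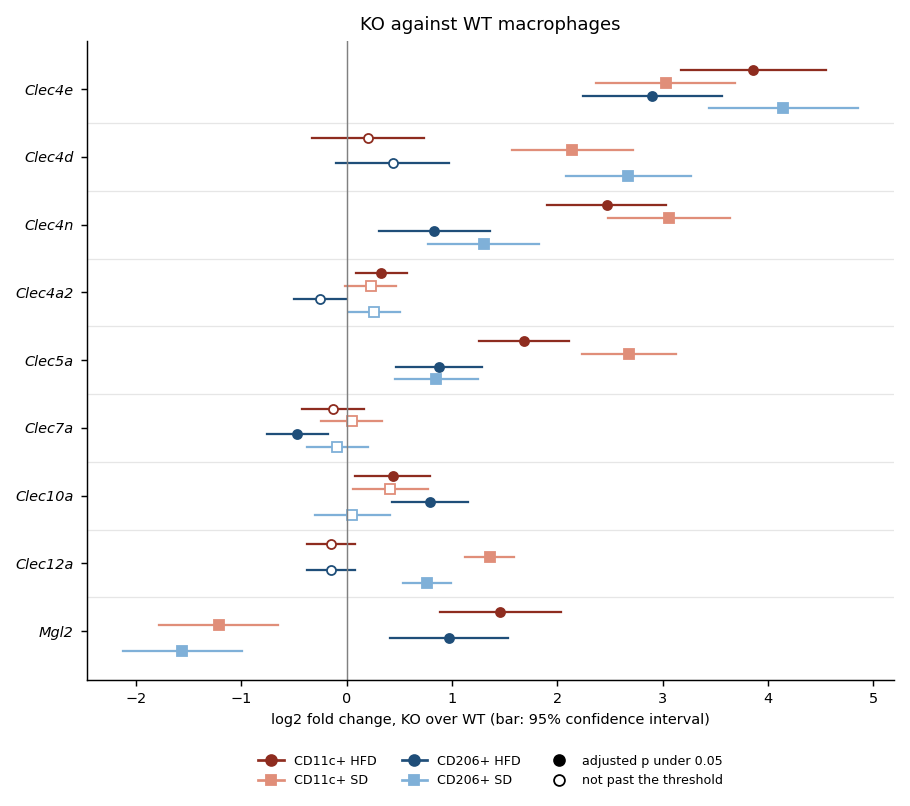
Log2 fold change KO over WT of the 9 members (points) with 95% confidence intervals (bars) in each diet and population; filled points have an adjusted p under 0.05. Clec4e lies between 2.90 and 4.14 in all 4 comparisons, while Mgl2 is above 0 on HFD and below 0 on SD.

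Marker genes of monocytes and other cell types also moved with genotype. Summed over 8 monocyte markers, CD11c+ libraries on HFD had 2121 to 2650 CPM in KO and 592 to 793 CPM in WT. CD206+ libraries on HFD had 4080 to 4878 CPM in KO and 2392 to 2768 CPM in WT. On SD the sum was 1947 to 2841 CPM in KO and 2774 to 3719 CPM in WT for CD11c+ cells, which overlap, and 3653 to 4846 CPM in KO and 5680 to 7152 CPM in WT for CD206+ cells. The order of the genotypes by this sum was thus opposite on the 2 diets in CD206+ cells. Of these 8 genes, 8, 4, 6 and 5 were higher and 0, 1, 0 and 1 lower in KO in CD11c+ HFD, CD11c+ SD, CD206+ HFD and CD206+ SD cells. Their median difference was 2.89, 1.53, 1.46 and 1.83 in that order, so unlike the sum it was higher in KO on both diets. Ly6c2, the inflammatory monocyte gene, averaged 8.14 to 14.1 CPM in KO groups and 0.57 to 1.35 CPM in WT groups.

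The 9 genes found of 10 listed neutrophil markers summed to 54.9 to 114 CPM in KO libraries and 9.46 to 53.4 CPM in WT libraries, and most of it was Csf3r, at group means of 71.5 to 97.1 CPM in KO and 10.6 to 40.4 CPM in WT. The granule genes Ngp and Camp were at 0 in all libraries of some groups, and Ly6g was not analysed here. Of 7 tested neutrophil markers 4, 1, 4 and 2 were higher and 0 lower in KO in CD11c+ HFD, CD11c+ SD, CD206+ HFD and CD206+ SD cells. Their median difference was 1.5, 0.52, 1.4 and 0 in that order. The dendritic cell list summed to 121 to 326 CPM in KO and 39.7 to 127 CPM in WT in CD11c+ cells on HFD, and to 146 to 311 CPM in KO and 308 to 624 CPM in WT on SD. Cd209a alone, a gene of that list, averaged 294 CPM in WT CD11c+ cells on SD. In CD206+ cells that list summed to 83.2 to 148 CPM in KO and 37.2 to 63 CPM in WT on HFD, and to 134 to 162 CPM in KO and 300 to 370 CPM in WT on SD. In CD206+ cells the dendritic cell sum, like Mgl2, was higher in KO on HFD and lower in KO on SD. Of the 10 listed genes, 9 were higher and 0 lower in KO in CD11c+ HFD cells, and 4 higher and 1 lower in CD11c+ SD cells. In CD206+ cells 2 were higher and 0 lower on HFD, and 2 higher and 3 lower on SD. The median difference in CD11c+ cells was 1.48 on HFD and 0.35 on SD, and in CD206+ cells 0.34 and 0.24. Cd209a, 1 of the 10, made up most of the WT sum in CD206+ cells on SD, at 258 CPM against 9.82 CPM in KO. Macrophage markers, a list of 8 genes, summed to 9139 to 13553 CPM in KO and 4808 to 7429 CPM in WT CD11c+ cells on SD, where 7 were higher in KO and 0 lower. In the other 3 comparisons 0, 2 and 2 of the 8 were higher in KO and 2, 1 and 0 lower, in CD11c+ HFD, CD206+ HFD and CD206+ SD cells. Of 10 stromal markers 7 were lower in KO on HFD in each population. Endothelial markers were lower in KO for 4, 6, 0 and 7 of 8 in CD11c+ HFD, CD11c+ SD, CD206+ HFD and CD206+ SD cells. In that order 3, 1, 6 and 1 of 8 adipocyte markers were higher in KO and 2, 1, 0 and 3 lower. Of 8 tested T, B and NK cell markers 4, 2, 4 and 4 were higher and 0 lower. Of 12 immediate early genes, which also respond to the handling of cells, 5, 2, 3 and 0 were higher and 1, 6, 0 and 3 lower. The part of all these genes in the lectin differences was not tested.

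Diet changed several members in WT cells. In CD11c+ cells 3 were higher and 2 lower on HFD than on SD, where 46.3% of all tested genes were called, 23.8% higher and 22.6% lower. Clec4d rose by 2.21 ± 0.28 (4.62-fold, adjusted p = 1.44e-07), Clec12a by 1.45 ± 0.11 (2.74-fold, adjusted p = 1.46e-11) and Clec5a by 0.91 ± 0.22 (adjusted p = 0.00101). Mgl2 was lower on HFD (-2.77 ± 0.29, 0.146-fold, adjusted p = 4.13e-09), and so was Clec4e (-1.25 ± 0.31, adjusted p = 0.00136). The HFD libraries of Clec4e, at 24.7 to 34 CPM, lay below all SD libraries, at 49.7 to 85.9 CPM. The groups did not overlap for these 5 members, as for 40.2% of all genes. The diet comparisons share their WT libraries with the genotype comparisons above.

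WT CD206+ cells had 2 members higher and 2 lower on HFD, with 27.7% of all genes called, 14.2% higher and 13.5% lower. Clec4d rose by 2.23 ± 0.29 (4.69-fold, adjusted p = 9.07e-07) and Clec12a by 0.78 ± 0.11 (adjusted p = 5.14e-06), while Mgl2 (-2.52 ± 0.29, 0.175-fold, adjusted p = 1.18e-07) and Clec10a (-0.69 ± 0.17, adjusted p = 0.00328) were lower. Clec4e was at 24.9 to 56.6 CPM on HFD and 14.7 to 29.3 CPM on SD (0.79 ± 0.31, adjusted p = 0.0585). It passed the threshold when WT HFD replicate 2 (0.97, adjusted p = 0.0263), WT SD replicate 1 (0.94, adjusted p = 0.046) or WT SD replicate 2 (0.98, adjusted p = 0.0368) was left out. Clec5a was at 28.7 to 37 CPM on HFD and 39.9 to 53.7 CPM on SD, apart but short of the threshold (-0.49 ± 0.20, adjusted p = 0.064). Groups did not overlap for 5 members here, as for 31.4% of all genes. Immediate early genes summed to 6875 to 8475 CPM on HFD and 14336 to 20170 CPM on SD in WT CD11c+ cells. In WT CD206+ cells they summed to 11819 to 14871 CPM on HFD and 24776 to 30591 CPM on SD. In KO CD11c+ cells these genes summed to 7595 to 12444 CPM on HFD and 9138 to 12948 CPM on SD. In KO CD206+ cells the sums were 13939 to 17872 CPM on HFD and 12583 to 26257 CPM on SD. Markers of cell types moved with diet too. In WT CD11c+ cells all 8 macrophage markers were higher on HFD, with sums of 11691 to 15260 CPM on HFD and 4808 to 7429 CPM on SD, against 2 of 8 higher in WT CD206+ cells. Of 6 tested mast cell and basophil genes 5 were higher on HFD in each population. The 8 such genes listed summed to 15 to 43.1 CPM on HFD and 1.55 to 5.31 CPM on SD in CD11c+ cells, and 22 to 123 CPM on HFD and 4.21 to 13.5 CPM on SD in CD206+ cells. Of 10 stromal markers 6 were higher on HFD in each population, and 6 of 8 adipocyte markers were lower on HFD in CD206+ cells. The part of these genes in the diet differences was not tested.

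In KO cells no member passed the diet test. The HFD and SD groups overlapped for all 9 members, while 3.31% of all genes had groups apart in CD11c+ cells and 4.3% in CD206+ cells. Over all tested genes the same test called 1 gene in CD11c+ cells (0.00743%) and 0 genes in CD206+ cells (0%), against 1221 and 831 genes with an unadjusted p under 0.05, of which 1 and 2 were members. DESeq2 called 51 and 18 genes in these populations and 0 members. Fitted member differences ran from -0.42 to 0.37 in CD11c+ cells and from -0.46 to 0.04 in CD206+ cells. The 95% intervals were -0.27 to 0.79 for Clec4d, -0.66 to 0.46 for Mgl2 and -0.28 to 0.18 for Clec12a in CD11c+ cells. In CD206+ cells they were -0.54 to 0.52 for Clec4d, -0.54 to 0.57 for Mgl2 and -0.36 to 0.10 for Clec12a. None of these 6 intervals holds the difference fitted in WT cells. The interactions of genotype with diet given above for Clec4d, Clec12a and Mgl2 are the tests of that contrast. Over the 9 members the interaction was called for 4 in CD11c+ cells, where 28.8% of all genes were called, and for 5 in CD206+ cells, where 11.9% were. The CD206+ calls also hold Clec4a2 (-0.52 ± 0.17, adjusted p = 0.0434), which 11 of the 16 fits without 1 library lost.

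**Figure D4:**
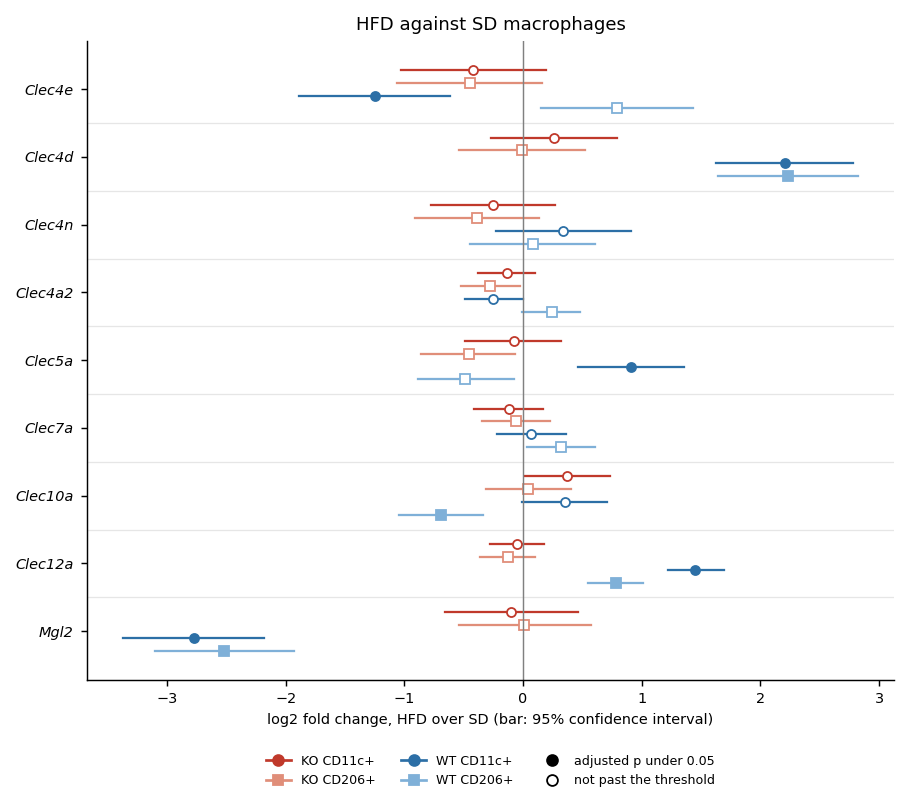
Log2 fold change HFD over SD of the 9 members (points) with 95% confidence intervals (bars), by genotype and population; filled points have an adjusted p under 0.05. No KO point is filled, and the WT points of Mgl2, at -2.77 and -2.52, and of Clec4d, at 2.21 and 2.23, are the farthest from 0.

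Between the sorted populations, Clec5a, Clec7a, Clec10a and Mgl2 differed in all 4 settings. Clec10a, whose CD11c+ libraries at 81.4 to 239 CPM lay below all CD206+ libraries at 311 to 708 CPM, differed (log2 CD11c+ over CD206+) by -1.69 ± 0.18 in KO HFD, -2.02 ± 0.18 in KO SD, -1.34 ± 0.18 in WT HFD and -2.38 ± 0.18 in WT SD mice. Mgl2 differed by -1.72 to -1.11, also lower in CD11c+ cells. Clec5a differed by -0.73 ± 0.20 in KO HFD, -1.11 ± 0.20 in KO SD, -1.54 ± 0.21 in WT HFD and -2.93 ± 0.22 in WT SD mice. Clec7a ran the other way, higher in CD11c+ cells by 0.88 ± 0.14, 0.94 ± 0.14, 0.55 ± 0.14 and 0.80 ± 0.14 in the same order. Adjusted p-values were 0.0067 or less for these 4 genes throughout.

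For Clec4n the CD11c+ over CD206+ difference was -0.23 ± 0.26 in KO HFD (adjusted p = 0.486) and -0.36 ± 0.25 in KO SD mice (adjusted p = 0.239). In WT mice it was -1.86 ± 0.27 on HFD (adjusted p = 1.22e-05) and -2.12 ± 0.28 on SD (adjusted p = 1.55e-07). The interactions of genotype with population given above are the test of that contrast. In pairs of same-numbered libraries, with the replicate as a block, the KO SD difference was -0.37 (adjusted p = 0.00423). Clec4e was higher in CD11c+ cells of WT SD mice (1.69 ± 0.32, adjusted p = 3.49e-05). Clec4a2 was higher in CD11c+ cells of KO HFD (0.67 ± 0.12, adjusted p = 5.08e-05), KO SD (0.53 ± 0.12, adjusted p = 0.00056) and WT SD mice (0.56 ± 0.12, adjusted p = 0.000168). Clec12a was lower in CD11c+ cells of WT SD mice (-0.43 ± 0.11, adjusted p = 0.00144). On SD its rise in KO was larger in CD11c+ than in CD206+ cells by 0.60 ± 0.16 (adjusted p = 0.0202), which 4 of the 16 fits without 1 library lost.

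Of the 9 members, CD11c+ against CD206+ gave 2 higher and 3 lower in KO HFD mice, with 45.8% of all genes called, 23.3% higher and 22.5% lower. KO SD mice gave 2 higher and 3 lower, with 51.7% called, 25.6% higher and 26.1% lower. WT HFD mice gave 1 higher and 4 lower, with 20.4% called, 11.7% higher and 8.7% lower. WT SD mice gave 3 higher and 5 lower, with 63.7% called, 30.2% higher and 33.5% lower. Same-numbered libraries of the 2 populations deviated together in KO SD, WT HFD and WT SD mice. There the replicate block added Clec4d (0.54, adjusted p = 0.0122) and Clec12a (0.24, adjusted p = 0.0489) in WT HFD, Clec4d (0.57, adjusted p = 0.0103) in WT SD and Clec4e (0.73, adjusted p = 0.00468) in KO SD mice. In that fit the interaction of genotype with population on SD was -0.99 for Clec4e (adjusted p = 0.0332), against -1.12 without the block (adjusted p = 0.123). The interaction was called for 2 members on HFD, where 4.36% of all genes were called, and for 3 on SD, where 6.57% were. The HFD pair is Clec4n and Clec4a2 (0.58 ± 0.17, adjusted p = 0.0437), and 11 of the 16 fits without 1 library lost Clec4a2. Markers of other cell types also differed between the populations, given here for KO HFD, KO SD, WT HFD and WT SD mice in that order. Of 10 stromal markers 5, 7, 4 and 10 were lower in CD11c+ cells. Their sums were 78.2 to 132 CPM in CD11c+ and 216 to 297 CPM in CD206+ cells of KO HFD mice, and 56.9 to 174 CPM in CD11c+ and 248 to 808 CPM in CD206+ cells of WT SD mice. Of 10 dendritic cell markers 7, 7, 5 and 5 were higher in CD11c+ cells, with median differences of 2.80, 2.43, 1.69 and 0.87. Macrophage markers were lower in CD11c+ cells for 7, 7, 2 and 7 of 8, endothelial markers for 7, 8, 3 and 8 of 8 and adipocyte markers for 8, 8, 0 and 8 of 8. The part of these markers in the population differences was not tested.

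**Figure D5:**
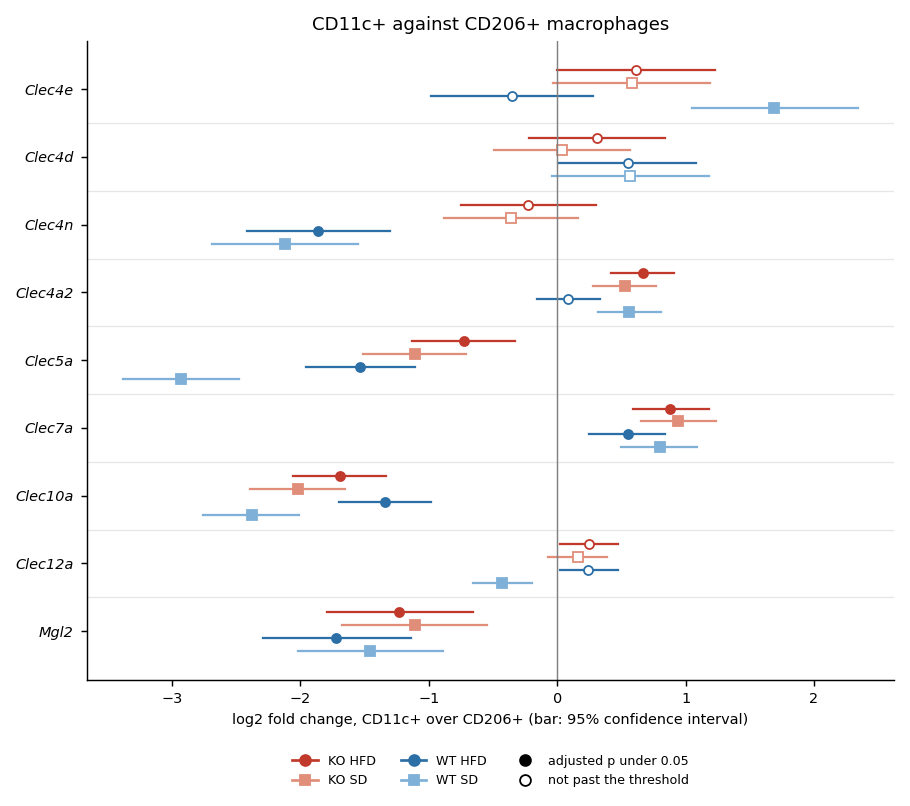
Log2 fold change CD11c+ over CD206+ of the 9 members (points) with 95% confidence intervals (bars), by genotype and diet, without the replicate block; filled points have an adjusted p under 0.05. Clec10a, Mgl2 and Clec5a lie below 0 and Clec7a above 0 in all 4 settings.

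In the 3 gene lists that follow, the shares of all tested genes called in KO against WT were 38% in CD11c+ HFD, 26.8% in CD11c+ SD, 21.8% in CD206+ HFD and 24.5% in CD206+ SD cells. Of 20 adaptors, kinases and phosphatases, KO against WT called 8 higher and 1 lower in CD11c+ HFD, 5 higher and 5 lower in CD11c+ SD, 2 higher and 1 lower in CD206+ HFD and 9 higher and 0 lower in CD206+ SD cells. The median difference over the list was 0.18, 0.06, 0.16 and 0.26 in that order, against -0.02, -0.02, 0 and -0.03 over all tested genes. Fcer1g, the shared gamma chain, had 967 ± 59.1 CPM in KO and 750 ± 46.4 CPM in WT CD11c+ cells on HFD (SD, n = 4 each), a rise of 0.37 ± 0.10 (adjusted p = 0.00354). In CD206+ cells on SD it had 990 ± 140 CPM in KO and 728 ± 56.7 CPM in WT (0.44 ± 0.10, adjusted p = 0.00118), and it was not called in the other 2 comparisons. Syk and Card9 were not called in any of the 4, at differences of -0.24 to 0.14 for Syk and 0 to 0.17 for Card9. Malt1 was called in CD206+ cells on SD (1.50 ± 0.33, adjusted p = 0.00128) and Tyrobp was lower in KO CD11c+ cells on SD (-0.32 ± 0.10, adjusted p = 0.0232).

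Src, a kinase, and Ptpn6, which encodes the phosphatase SHP-1 that inhibitory receptors recruit, were called higher in KO in all 4 comparisons. Src averaged 8.12, 9.7, 10.6 and 13 CPM in KO and 4.08, 0.832, 2.37 and 1.82 CPM in WT in CD11c+ HFD, CD11c+ SD, CD206+ HFD and CD206+ SD cells, a rise in KO of 0.99, 3.56, 2.16 and 2.83 in that order. Its adjusted p-values were 0.000367 or less. Ptpn6 rose in KO by 0.44 ± 0.10 in CD11c+ HFD cells (adjusted p = 0.000571), 0.76 ± 0.10 in CD11c+ SD cells (adjusted p = 7.07e-07), 0.31 ± 0.10 in CD206+ HFD cells (adjusted p = 0.0204) and 0.95 ± 0.10 in CD206+ SD cells (adjusted p = 2.41e-08). With diet, Src was higher on HFD in WT CD11c+ cells (2.31 ± 0.25, adjusted p = 7.27e-09). Plcg2, a phospholipase C downstream of Syk, was lower there (-1.44 ± 0.15, adjusted p = 2.22e-09).

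Among 27 other C-type lectin and lectin-like genes tested, KO against WT called 13 higher and 4 lower in CD11c+ HFD, 8 higher and 7 lower in CD11c+ SD, 9 higher and 4 lower in CD206+ HFD and 3 higher and 10 lower in CD206+ SD cells. The median difference over these genes was 0.83, 0.02, 0.24 and -0.26 in that order. The largest change in CD11c+ cells on HFD was in Clec2g, a lectin-like gene at 1.51 ± 0.411 CPM in KO and 0.124 ± 0.0953 CPM in WT (3.53 ± 0.66, adjusted p = 8.17e-05). That in CD206+ cells on HFD was in Mrc2, the collagen receptor Endo180, at 0.755 ± 0.578 CPM in KO and 7.18 ± 4.51 CPM in WT (-3.24 ± 0.68, adjusted p = 0.000668). Genes of the Cd209 family, mouse relatives of DC-SIGN, were among the largest differences in CD206+ cells on SD. Cd209b had 5.65 ± 2.43 CPM in KO and 180 ± 19.7 CPM in WT CD206+ cells on SD (-4.99 ± 0.49, adjusted p = 1.07e-08; SD, n = 4 each). Cd209a had 9.82 ± 5.99 CPM in KO and 258 ± 30.4 CPM in WT (-4.71 ± 0.55, adjusted p = 1.5e-07), and Cd209d had 14.3 ± 6.36 CPM in KO and 286 ± 15.1 CPM in WT (-4.32 ± 0.51, adjusted p = 1.94e-07). Cd209a (-3.99 ± 0.52, adjusted p = 1.1e-06) and Cd209d (-3.75 ± 0.49, adjusted p = 1.14e-06) were also lower on HFD than on SD in WT CD206+ cells. On HFD, Cd209g was higher in KO, in CD11c+ cells by 2.75 ± 0.65 (adjusted p = 0.00123) and in CD206+ cells by 1.69 ± 0.40 (adjusted p = 0.0024). So was Cd69, an activation marker of leukocytes, by 2.55 ± 0.33 (adjusted p = 3.96e-07) and 1.87 ± 0.32 (adjusted p = 5.39e-05).

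Of 15 tested cytokine, chemokine and enzyme genes described as induced through Syk and CARD9, KO against WT called 5 higher and 2 lower in CD11c+ HFD, 4 higher and 3 lower in CD11c+ SD, 4 higher and 1 lower in CD206+ HFD and 5 higher and 3 lower in CD206+ SD cells. The median difference was 0.47, -0.30, 0.06 and 0.39 in that order. Il12b, which encodes a subunit of interleukin-12 and interleukin-23, had the largest change of the list in CD206+ cells. It had 3.41 ± 3.05 CPM in KO and 0.159 ± 0.115 CPM in WT on HFD (4.35 ± 0.91, adjusted p = 0.000632), and 7.26 ± 3.32 CPM in KO and 0.164 ± 0.123 CPM in WT on SD (5.45 ± 0.92, adjusted p = 4.51e-05). It also rose in KO CD11c+ cells on SD (3.12 ± 0.73, adjusted p = 0.00169) and was not called there on HFD (0.81 ± 0.67, adjusted p = 0.356). Nos2, the inducible nitric oxide synthase, was higher in KO in all 4, by 2.66, 4.55, 2.42 and 3.5 in that order (adjusted p = 0.0155 or less). In the same order Nos2 had 10.6 ± 7.02, 19.7 ± 15.9, 10.5 ± 9.41 and 19.7 ± 23.8 CPM in KO (SD, n = 4 each). In WT it had 1.67 ± 1.28, 0.811 ± 0.335, 1.97 ± 0.533 and 1.72 ± 0.74 CPM. Il6 went opposite ways on the 2 diets in CD11c+ cells. On HFD it had 56.8 ± 22.7 CPM in KO and 9.16 ± 2.03 CPM in WT (2.63 ± 0.39, adjusted p = 3.55e-06). On SD it had 118 ± 54.2 CPM in KO and 329 ± 84.5 CPM in WT (-1.48 ± 0.36, adjusted p = 0.00235; SD, n = 4 each). Ptgs2, encoding cyclooxygenase-2, was higher in KO CD11c+ cells on HFD (2.34 ± 0.42, adjusted p = 5.45e-05) and in KO CD206+ cells on both diets (1.64 ± 0.42 on HFD, adjusted p = 0.00406; 1.86 ± 0.42 on SD, adjusted p = 0.00138). Diet called 0 genes of these 3 lists in KO cells, where it called 1 and 0 of all 13453 tested genes in CD11c+ and CD206+ cells.

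By Pearson correlation of log2 CPM over the 32 libraries, the genes most like Clec4e were Arl5c (0.978), Psmb10 (0.97) and Psme2 (0.969), the last pair encoding subunits of the immunoproteasome and its activator. Clec4d was most like Slc16a10 (0.939), Tnfaip2 (0.934) and Abi3 (0.931). Clec4n was most like Clec4a1 (0.951), Aoah (0.949) and Aif1 (0.936), and Clec5a most like Ifi204 (0.97), Aoah (0.964) and Smpdl3b (0.956). The nearest genes to Clec7a were Ccnb2 (0.921), Vegfa (0.917) and Bub1 (0.912), and to Clec10a Cmah (0.967), Ltc4s (0.967) and Arhgef3 (0.965). To Clec4a2 the nearest was Idi1 (0.912), to Clec12a Ifngr2 (0.937) and to Mgl2 Foxred2 (0.935), Smo (0.935) and Grap (0.934). The nearest genes depended on the measure. By Spearman correlation they were Sod2 (0.968), Arl5c (0.961) and Gpr141 (0.96) for Clec4e. For Clec4n they were Parp14, Fpr2 and Xaf1, and for Clec10a C4b, Ninj1 and C1qa. Among the members themselves Clec4n and Clec5a had the highest value (0.91) and Clec7a and Clec10a the lowest (-0.90), whereas the neighbours Clec4e and Clec4d had 0.62 and Mgl2 and Clec10a 0.58. The 32 libraries share 8 group means, so these values describe the pattern over groups. After subtraction of the group means Clec4n and Clec5a had 0.37, Clec7a and Clec10a -0.27, Clec4e and Clec4d 0.44 and Mgl2 and Clec10a 0.54.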

How the data were processed

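The authors deposited 1 table of raw read counts per gene for each of the 32 libraries, and these counts were used as deposited. Per the submitters' processing notes, reads went through TopHat2 2.1.0 against mm10 (GRCm38), with Trimmomatic 0.35, FastQC 0.11.4 and SAMtools 0.1.18 also listed. The read counter, its annotation and its strand setting were not given in the labels or notes. The 5 entries that name no gene, among them reads without a feature (5.16% to 11.1%) and ambiguous reads (0.992% to 1.48%), were left out of library sizes and tests. Groups came from the sample titles. Genes were filtered with filterByExpr (minimum count 10), scaled by TMM (factors 0.855 to 1.08) and tested in edgeR 4.0.16 (R 4.3.3) by the quasi-likelihood test, with all 32 libraries in 1 fit and a mean per group. Benjamini-Hochberg adjustment ran over all 13453 tested genes within each of 16 contrasts, 12 between 2 groups and 4 interactions, with a threshold of 0.05; CPM are counts per 1000000 TMM-scaled gene counts, and the standard error is the absolute log2 fold change divided by the square root of the F statistic. All 9 members were tested in each of the contrasts (144 tests), of which the text gives a part. Members, gene lists and the naming rule were chosen with earlier results of these data known. Of each pathway list up to 4 called genes with the largest absolute change in a contrast could be named. The text gives a part of these. For each member it names 1 to 3 of the 3 genes with the highest correlation of log2 CPM (prior count 2). Clone and gene model names, such as Gm followed by digits or symbols ending in Rik, were left out of that ranking.

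Alternatives were RLE scaling, library totals, DESeq2 1.42.0, no filter, a stricter filter, only the groups of a contrast in the fit, the replicate number as a block, and leaving out each library; Spearman correlation was the alternative for likeness. Same-numbered CD11c+ and CD206+ libraries deviated together in every pair of WT HFD (r 0.23 to 0.47), KO SD (0.14 to 0.32) and WT SD mice (0.14 to 0.28) but not of KO HFD mice (-0.05 to 0.33), a pairing taken from the replicate numbers in the titles. No 2 libraries of a group agreed within sampling noise (chi-square per degree of freedom 10.9 to 68). The fit was also run on simulated counts with known genotype changes in CD11c+ HFD and CD206+ SD cells. Those counts were drawn with the spread fitted here, so the run cannot show whether the model suits the data. Gene positions are from GENCODE M21 (GRCm38) and promoter sequences from RefSeq (GRCm38.p6).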

Additional observations from a re-analysis of the deposited data

Results flagged for a closer look

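In 7 of 72 sets of 4 libraries 1 library lay far from the other 3 by Dixon's criterion, which chance gives in about 1 of 20 sets. Clec4d had 43 CPM in KO SD CD206+ replicate 4, against 23.9 to 27.1 CPM in the others, and Clec4n 115 CPM in KO HFD CD206+ replicate 1, against 71.8 to 79 CPM. Clec5a had 57 CPM in KO SD CD11c+ replicate 4, against 33.6 to 34.6 CPM. Clec7a had 296 CPM in KO HFD CD11c+ replicate 2, against 418 to 431 CPM. Clec12a had 271 CPM in KO HFD CD206+ replicate 3, against 373 to 391 CPM, and 451 CPM in WT HFD CD206+ replicate 1, against 368 to 374 CPM. Clec4a2 had 171 CPM in WT SD CD206+ replicate 1, against 134 to 140 CPM.

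The genotype difference itself differed between diets or populations for 14 gene and setting pairs by the interaction term. Between HFD and SD it differed in CD11c+ cells by -1.94 for Clec4d, -1.0 for Clec5a, -1.50 for Clec12a and 2.67 for Mgl2, and in CD206+ cells by -2.24 for Clec4d, -0.52 for Clec4a2, 0.74 for Clec10a, -0.91 for Clec12a and 2.53 for Mgl2. Between CD11c+ and CD206+ cells it differed on HFD by 1.63 for Clec4n and 0.58 for Clec4a2, and on SD by 1.76 for Clec4n, 1.83 for Clec5a and 0.60 for Clec12a.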

How the results depend on the processing

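Of 2448 member values under the alternatives, 2354 kept their side of the threshold, 56 lost a call and 36 gained one. The other 2, called on neither side, changed sign and moved by more than the standard error of the reported fit. Shifts of that size without a change of sign were not counted apart. A change of sign in values called on neither side occurred in 58, these 2 included, and 0 called values changed sign. Leaving out 1 library accounted for 51 of the losses and 19 of the gains, and the other alternatives for 5 and 17. The count of members called ranged from 1 to 2 for genotype by population on HFD and from 3 to 6 for genotype by diet in CD206+ cells when 1 library was left out. For KO against WT these ranges were 4 to 6 in CD11c+ and 4 to 7 in CD206+ cells on HFD, and 6 to 7 in both on SD; the count for diet in KO cells stayed 0. Over all tested genes, genotype by population on HFD called 586 genes, against 354, 306 and 316 without KO HFD CD11c+ replicate 2, KO HFD CD206+ replicate 3 or WT HFD CD11c+ replicate 1; diet in KO CD11c+ cells called 1 gene, against 80 without KO HFD CD11c+ replicate 1, and in KO CD206+ cells 0, against 7 without KO SD CD206+ replicate 1. With the replicate block, genotype by population called 1209 genes on HFD and 1612 on SD, against 586 and 884. In KO HFD mice only some same-numbered libraries deviated together (r -0.05 to 0.33). There the block added Clec4e (0.61, adjusted p = 0.0155) and Clec12a (0.26, adjusted p = 0.0215) between populations. It also added Clec5a (0.83, adjusted p = 0.00872) to the HFD interaction. In KO against WT CD11c+ cells on HFD the block lost Clec10a (adjusted p = 0.0577). It changed no member call besides these and those given with the results. With only the groups of a contrast in the fit, Clec5a (-0.49, adjusted p = 0.00737) and Clec7a (0.31, adjusted p = 0.0339) gained a call for diet in WT CD206+ cells. The cause of these changes was not tested.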
